A study of Mus musculus with 12 samples.

Results

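Osteoprotegerin and 9 other genes of the RANKL axis and of vascular calcification were followed in the inferior vena cava (IVC) of mice with an arteriovenous fistula (AVF). The 10 genes are Tnfrsf11b, Tnfrsf11a, Tnfsf11, Runx2, Sox9, Mgp, Alpl, Enpp1, Bmp2 and Bmp4, of 55414 genes in the count table. They were chosen by symbol, with the difference between the AVF and sham groups known. Their AVF and sham levels are therefore given as a description without p values. Where the fit of all genes called 1 of the 10, the call describes that fit and is no test of the gene. Messenger RNA was sequenced from the IVC of 12 wild-type C57BL/6J mice of 10 weeks, collected on postoperative day 7. In 6 mice an infrarenal fistula between the aorta and the IVC had been made by needle puncture, and 6 mice had a sham operation, with 3 male and 3 female mice in each group. Each library came from 1 mouse and from the whole vessel segment, a bulk sample in which fewer cells of a type and less RNA per cell cannot be told apart. The IVC of AVF mice was taken between the fistula opening and the left renal vein, and all AVF were patent.

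Osteoprotegerin, the product of Tnfrsf11b, is a secreted decoy receptor that binds RANKL (Tnfsf11) and keeps it from its receptor RANK (Tnfrsf11a), which drives the formation of osteoclasts. In the vessel wall, calcification can follow a shift of smooth muscle or other mesenchymal cells toward an osteoblast or cartilage programme, for which Runx2 and Sox9 are the transcription factors. The bone morphogenetic proteins encoded by Bmp2 and Bmp4 can promote that shift, alkaline phosphatase (Alpl) removes pyrophosphate, Enpp1 produces it as an inhibitor of mineral, and matrix Gla protein (Mgp) is a local inhibitor of calcification.

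The start regions of 3 of the genes are printed, Runx2 and Enpp1 for their match to the RUNX motif. Bmp4 is printed as the only gene with an entry that was higher in AVF at an adjusted p under 0.05, though under 2-fold. Of the 10 genes, 6 had an entry in the RefSeq promoter table of build GRCm38.p6, and Tnfrsf11b, Sox9, Mgp and Bmp2 had none. The 250 bases before each start site were searched on both strands for TGTGGT, the core of the motif that RUNX factors bind. Matches are in capitals, and one on the opposite strand reads ACCACA. No other motif was searched. Of 32851 promoters of that length in the table, 14% held it, and of the 6 genes, Runx2 and Enpp1 held it. The windows are at chr17:44814628-44814877 for Runx2, chr10:24712160-24712409 for Enpp1 and chr14:46390670-46390919 for Bmp4, all on the minus strand of GRCm38.p6, and they are printed 5′ to 3′ along the gene. A match of these letters is a description of the window only.
Runx2: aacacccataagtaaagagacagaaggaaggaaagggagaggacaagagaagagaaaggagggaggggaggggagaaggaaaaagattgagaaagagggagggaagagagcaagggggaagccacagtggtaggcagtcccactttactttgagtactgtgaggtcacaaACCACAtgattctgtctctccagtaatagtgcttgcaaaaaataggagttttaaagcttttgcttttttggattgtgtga
Enpp1: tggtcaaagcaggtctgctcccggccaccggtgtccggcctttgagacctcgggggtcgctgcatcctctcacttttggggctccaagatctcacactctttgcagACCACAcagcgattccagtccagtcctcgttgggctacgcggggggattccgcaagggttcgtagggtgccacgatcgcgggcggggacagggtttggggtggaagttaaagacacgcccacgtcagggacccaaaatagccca
Bmp4: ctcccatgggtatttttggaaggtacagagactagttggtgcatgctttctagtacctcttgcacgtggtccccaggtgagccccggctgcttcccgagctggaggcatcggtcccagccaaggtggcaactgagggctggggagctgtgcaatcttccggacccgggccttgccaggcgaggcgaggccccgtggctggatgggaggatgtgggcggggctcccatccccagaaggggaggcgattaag

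The libraries held 15177881 to 22717423 counts. In AVF female 1 (sample #07) 46% of them fell on ribosomal RNA genes, and 2.39% to 12.6% in the other libraries. Levels are given as CPM, the counts of a gene relative to the size of its library, after TMM scaling, a trimmed mean over genes that makes libraries comparable. The floor of 3 counts stood at 0.127 to 0.323 CPM, depending on the library, and covers counting error only. The study set AVF male 2 (sample #05) and AVF female 2 (sample #09) apart from the other AVF samples. The summed level of 5 hepatocyte genes was 2373 CPM in sample #05 and 7086 CPM in sample #09, and 0.286 to 4.21 CPM in the other 10 libraries. The vessel markers were present in every library: 6 smooth muscle genes summed to 2272 to 4837 CPM in AVF and 2610 to 4704 CPM in sham, and 6 endothelial genes to 1870 to 2450 CPM and 1614 to 2756 CPM. Of the 6 fibroblast genes 4 were higher in AVF at an adjusted p under 0.05, and the sum of the 6 was 10207 to 15821 CPM in AVF and 5473 to 10080 CPM in sham. Col1a1 alone was 8274 ± 1950 CPM in AVF and 3279 ± 1152 CPM in sham. Dcn overlapped between the groups, at 2946 ± 174 CPM and 2710 ± 786 CPM (SD, n = 6). Of the 6 macrophage genes 5 were higher, with a sum of 1000 to 1597 CPM in AVF and 512 to 858 CPM in sham. Of the 5 brown fat genes 2 were lower, with a sum of 14 to 186 CPM in AVF and 88.2 to 1407 CPM in sham. All 5 hepatocyte genes passed the test as higher in AVF. The sums of the T cell, B cell, adipocyte, sympathetic neuron and striated muscle lists overlapped between the groups, and striated muscle genes stood out in sham female 1 at 789 CPM and sham female 3 at 408 CPM, against 3.14 to 47.7 CPM in the other libraries.

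In the sham IVC, Tnfrsf11b was among the least abundant of the 10 genes, and in the AVF it was exceeded by Mgp and Bmp4 only. On the scale of normalized CPM per kilobase of exon, which allows levels of different genes to be compared, Mgp led in both groups with 408 ± 72.1 in AVF and 214 ± 32.2 in sham (SD, n = 6 each). Bmp4 followed with a level of 17.2 ± 4.48 in AVF and 10.6 ± 2.96 in sham, and in both groups Mgp, Bmp4 and the next gene had library ranges that did not overlap. In sham, the order of mean CPM per kilobase went on with Enpp1 (2.99), Tnfrsf11a (2.53), Bmp2 (1.46), Alpl (1.32), Sox9 (0.712), Tnfrsf11b (0.493), Runx2 (0.493) and Tnfsf11 (0.189). Of these neighbours, the library ranges were apart between Tnfrsf11a and Bmp2 and between Alpl and Sox9, and all others overlapped. In AVF, the order below Bmp4 was Tnfrsf11b (5.54), Bmp2 (4.49), Enpp1 (3.52), Tnfrsf11a (2.94), Alpl (1.77), Sox9 (0.923), Runx2 (0.478) and Tnfsf11 (0.223), and every pair of neighbours overlapped.

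Of the 10 genes, 9 passed the expression filter, and Tnfrsf11b and Bmp2 had at least 2-fold higher levels in AVF with an adjusted p under 0.05. At adjusted p alone Mgp and Bmp4 were called as well, 4 of 9, all higher in AVF. Over all 15912 tested genes, 3.37% were called higher in AVF with both criteria and 8.63% at adjusted p alone, and 1.4% and 5.13% were called lower. Since the genes were chosen with this comparison known, nothing is read from their calls or from the difference. Every AVF library lay above every sham library for Tnfrsf11b, Mgp and Bmp2, as it did for 4.55% of all tested genes, and 1.51% lay below in the same way. The median log2 fold change was 0.43 over the 9 genes and -0.01 over all tested genes, and 8 of the 9 were above 0, against 7656 of 15912. In the AVF group the fibroblast and macrophage marker sums were also above every sham library, the fibroblast sum narrowly (10207 against 10080 CPM). Col1a1 was a large part of that sum, and the part of either list in these differences was not tested.

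**Figure D1:**
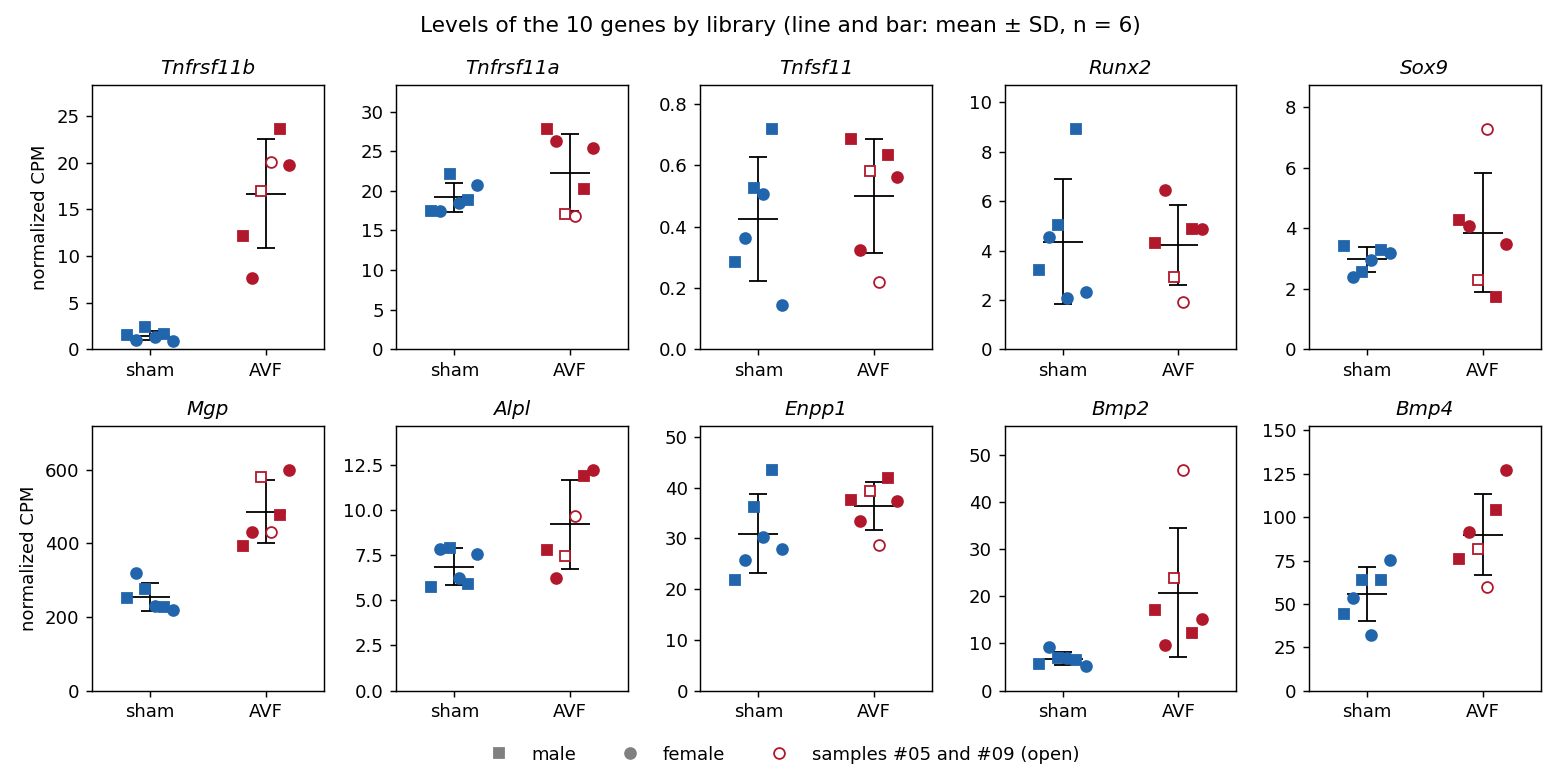
Normalized CPM of the 10 genes in each of the 12 libraries, with a separate linear axis for each gene. Squares are male and circles female mice, open symbols are samples #05 and #09, and lines with bars are the mean ± SD of 6 libraries; the AVF and sham libraries are apart for Tnfrsf11b, Mgp and Bmp2 and overlap for the other 7 genes.

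Tnfrsf11b (ENSMUSG00000063727, GRCm39 chr15:54114015-54142075, minus strand) had the largest difference of the 9 genes. Its level was 12.1, 17 and 23.6 CPM in AVF males and 7.65, 20.1 and 19.7 CPM in AVF females. In sham it was 1.56, 2.38 and 1.69 CPM in males and 1.04, 1.31 and 0.92 CPM in females. The lowest AVF library, the 1 with 46% ribosomal RNA, was still above the highest sham library. The means were 16.7 ± 5.84 CPM in AVF and 1.49 ± 0.529 CPM in sham (SD, n = 6), a ratio of 11.2 and a log2 fold change of 3.49 ± 0.30 (SE). The relative spread was alike, with a coefficient of variation of 35% in AVF and 35.6% in sham. Without samples #05 and #09 the log2 fold change was 3.42 ± 0.33.

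Tnfsf11, the gene of RANKL (ENSMUSG00000022015, chr14:78514885-78545490, minus strand), was near the floor in every library. It held 3 to 14 counts per library in AVF and 3 to 17 in sham, at 0.219 to 0.686 CPM and 0.145 to 0.719 CPM, and failed the expression filter. Its means were 0.501 ± 0.186 CPM and 0.424 ± 0.202 CPM (SD, n = 6), and with the more lenient filter of over 12 counts in all libraries its log2 fold change was 0.24 ± 0.42. That difference was smaller than its error. For each count of Tnfsf11 there were 34.1 counts of Tnfrsf11b in the summed AVF libraries (1941 and 57 counts) and 3.45 in the summed sham libraries (193 and 56 counts). By library the ratio was 17.7 to 91.8 in AVF, with a median of 32.1, and 2.35 to 6.33 in sham, with a median of 3.7, so that the groups did not overlap. Ratios of single libraries rest on few Tnfsf11 counts.

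Tnfrsf11a, the gene of RANK (ENSMUSG00000026321, chr1:105708358-105777170, plus strand), overlapped between the groups. It had 27.8, 17.1 and 20.2 CPM in AVF males, and 26.3, 16.8 and 25.4 CPM in AVF females. In sham it had 17.4, 22.1 and 18.9 CPM in males, and 17.5, 18.5 and 20.7 CPM in females. Samples #05 and #09 held the lowest values of all 12 libraries. The log2 fold change was 0.21 ± 0.14 with all libraries and 0.38 ± 0.11 without them, and it was not called in either fit.

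Bmp2, a ligand of the BMP receptors (ENSMUSG00000027358, chr2:133394079-133404816, plus strand), was the other gene called at 2-fold. In AVF its level was 17, 23.9 and 12.3 CPM in males and 9.59, 46.7 and 15.2 CPM in females. In sham it was 5.58, 6.96 and 6.51 CPM in males and 9.24, 6.98 and 5.32 CPM in females. The 2 highest AVF values were those of samples #05 and #09, the libraries with high levels of hepatocyte genes. The lowest AVF library was close to the highest sham library. The means were 20.8 ± 13.6 CPM and 6.77 ± 1.4 CPM (SD, n = 6), with a log2 fold change of 1.62 ± 0.34. Without sample #09 it was 1.21, and without samples #05 and #09 it was 1.01 ± 0.20. The coefficient of variation of Bmp2 was 65.4% in AVF and 20.6% in sham.

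Bmp4 (ENSMUSG00000021835, chr14:46620250-46636745, minus strand) was the more abundant of the 2 BMP genes, and its groups overlapped. Its level was 75.6, 81.9 and 104 CPM in AVF males and 91.5, 59.9 and 127 CPM in AVF females. In sham it was 44.2, 63.9 and 63.5 CPM in males and 53.6, 32.3 and 75.5 CPM in females. The lowest AVF value was in sample #09 and the highest sham value in sham female 3. The log2 fold change was 0.70 ± 0.21 with all libraries and 0.85 ± 0.21 without samples #05 and #09. Its call at adjusted p alone held in 8 of 21 alternative fits.

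Mgp, a vitamin K-dependent inhibitor of calcification (ENSMUSG00000030218, chr6:136849433-136852821, minus strand), was higher in every AVF library than in any sham library. It had 392, 581 and 476 CPM in AVF males, and 431, 431 and 598 CPM in AVF females. In sham it had 251, 275 and 226 CPM in males, and 320, 231 and 220 CPM in females. The log2 fold change of 0.93 ± 0.13 was just under 2-fold, and 0.90 ± 0.15 without samples #05 and #09. In 21 alternative fits it ranged from 0.86 to 1.01, and leaving out sham female 1 alone brought it to 2-fold.

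Runx2, the master regulator of osteoblasts (ENSMUSG00000039153, chr17:44806874-45125684, minus strand), overlapped fully between the groups. It had 4.29, 2.92 and 4.89 CPM in AVF males, and 6.46, 1.92 and 4.87 CPM in AVF females. In sham it had 3.21, 5.05 and 8.92 CPM in males, and 4.54, 2.07 and 2.32 CPM in females. The AVF group lay within the spread of the sham group apart from the 1.92 CPM of sample #09, and the log2 fold change was -0.05 ± 0.37. It was 0.23 ± 0.36 without samples #05 and #09, so that neither sign was larger than the error.

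Sox9, a transcription factor of cartilage (ENSMUSG00000000567, chr11:112673009-112678586, plus strand), had 4.29, 2.29 and 1.72 CPM in AVF males and 4.09, 7.28 and 3.47 CPM in AVF females. In sham it had 3.4, 2.57 and 3.3 CPM in males, and 2.4, 2.96 and 3.19 CPM in females. Values spread more widely in AVF, with a coefficient of variation of 50.8% against 13.7% in sham, and sample #09 was the highest. The log2 fold change was 0.37 ± 0.29 with all libraries and 0.18 ± 0.26 without samples #05 and #09.

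Both enzymes of pyrophosphate had overlapping groups. Alpl (ENSMUSG00000028766, chr4:137469039-137524102, minus strand) had 7.77, 7.44 and 11.9 CPM in AVF males and 6.25, 9.69 and 12.2 CPM in AVF females. In sham it had 5.72, 7.92 and 5.92 CPM in males, and 7.83, 6.26 and 7.55 CPM in females. AVF male 3, AVF female 2 and AVF female 3 were above every sham library, and the log2 fold change was 0.43 ± 0.18. Enpp1 (ENSMUSG00000037370, chr10:24513812-24588057, minus strand) had 37.5, 39.4 and 41.9 CPM in AVF males and 33.5, 28.7 and 37.4 CPM in AVF females. In sham it had 21.8, 36.1 and 43.4 CPM in males, and 25.8, 30.2 and 27.9 CPM in females. The highest of the 12 Enpp1 values was in sham male 3, and the log2 fold change was 0.24 ± 0.15. At adjusted p alone Alpl passed in 1 of 21 alternative fits, the 1 without AVF female 1, and at 2-fold in 0. Enpp1 passed in none, and its values ranged from 0.15 to 0.35.

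**Figure D2:**
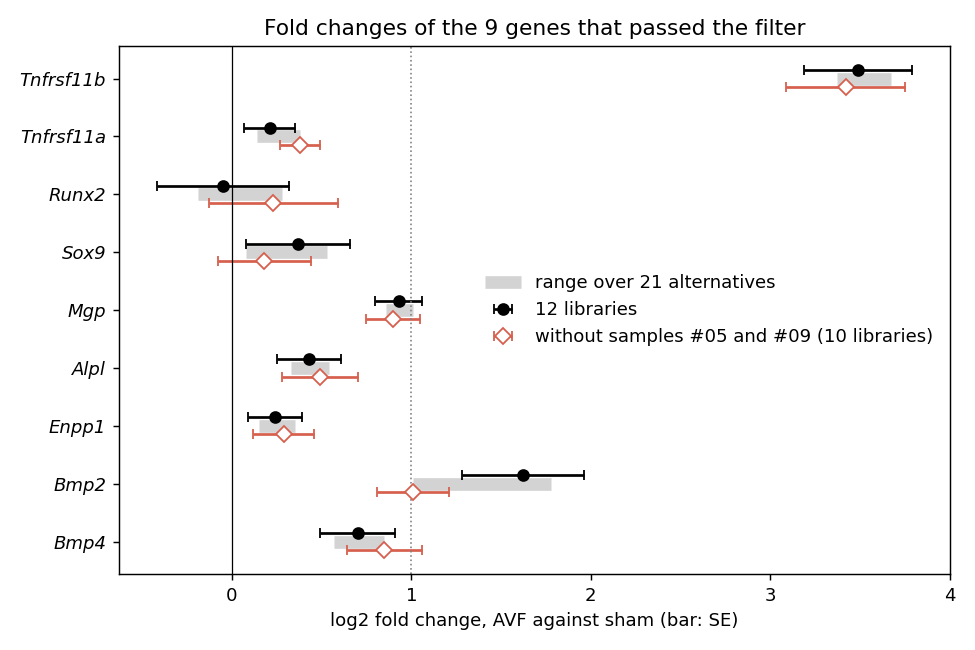
Log2 fold changes of AVF against sham for the 9 genes that passed the filter, with SE as bars, in all 12 libraries (filled circles) and without samples #05 and #09 (open diamonds); grey bands are the range over 21 alternative fits and the dotted line is 2-fold. Tnfrsf11b stayed between 3.37 and 3.67, and Bmp2 moved from 1.62 to 1.01 without the 2 samples.

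Within the groups, the deviations of Tnfrsf11b from its group mean were compared with those of 11442 other tested genes with a mean of at least 5 CPM, as Pearson's r of log2 CPM over the 12 libraries. The 5 genes most like it were Ramac (r = 0.958), Kiz (r = 0.920), Pigu (r = 0.916), Fam107b (r = 0.910) and Gm2a (r = 0.892). Their log2 fold changes between AVF and sham were -0.28 to 0.42, far from that of Tnfrsf11b. Among the calcification genes that met this minimum, r with Tnfrsf11b was 0.60 for Alpl, 0.36 for Bmp2, 0.33 for Mgp and Enpp1, 0.07 for Bmp4 and -0.38 for Tnfrsf11a. All values share the same libraries and their depth and are descriptions only.

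To place the 10 genes in their pathways, 8 lists of other genes were examined in the same comparison, with p values from edgeR's quasi-likelihood test adjusted over all 15912 tested genes. The lists hold 120 genes, of which 94 were tested. Of these, 9 rose and 4 fell at 2-fold, and 24 rose and 6 fell at adjusted p alone. Over all tested genes, 3.37% rose and 1.4% fell at 2-fold, and 8.63% rose and 5.13% fell at adjusted p alone. These shares are the background for each list below. The lists, like the 10 genes, were chosen with earlier results of these data known. Their p values describe single genes, and nothing is read from the difference in shares. The median log2 fold change over the 94 genes was 0.23, against -0.01 over all tested genes. Without samples #05 and #09, 9 genes were called at 2-fold in place of 13.

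No gene among the 16 tested of RANK signalling and osteoclasts was called at 2-fold by the quasi-likelihood test, nor by the exact test or DESeq2. By the quasi-likelihood test 7 had an unadjusted p under 0.05. The share of all genes at that level was not counted, so nothing is read from the 7. At adjusted p alone 2 rose and 1 fell. Ctsk, the collagen-degrading protease cathepsin K of osteoclasts and also of fibroblasts, rose from 63 ± 15.2 to 93.3 ± 17.6 CPM (SD, n = 6), with a log2 fold change of 0.57 ± 0.17 and an adjusted p of 0.0424, which over the alternatives was 0.00925 to 0.0827. The genes Csf1r and Mmp9, named here after their values were seen, were the other calls, with log2 fold changes of 0.71 ± 0.17 and -0.99 ± 0.25. Csf1r is the macrophage receptor of Csf1 and stands in the macrophage list too, whose sum was higher in AVF, and its part was not tested. Acp5, the tartrate-resistant acid phosphatase of osteoclasts, differed by 0.11 ± 0.21 on the log2 scale (adjusted p = 0.769), and Nfatc1, the transcription factor downstream of RANK, 0.20 ± 0.11 (adjusted p = 0.249). Lgr4, a further receptor of RANKL, had 0.16 ± 0.10 (adjusted p = 0.293), and Csf1 0.03 ± 0.14 (adjusted p = 0.915). Tnfsf10, the gene of TRAIL, which osteoprotegerin also binds, was 44 ± 9.82 CPM in AVF and 61.3 ± 10.8 CPM in sham, with -0.48 ± 0.18 (adjusted p = 0.0849). Of the osteoclast genes, Dcstamp was at 0 to 0.629 CPM, Ocstamp at 0 to 0.338 CPM, Oscar at 0 to 0.343 CPM and Calcr at 0 in all 12 libraries. Atp6v0d2, a proton pump subunit of osteoclasts and macrophages, was detected in every library, at 3.89 to 18.6 CPM in AVF and 0.931 to 11.4 CPM in sham. Its groups overlapped, and its log2 fold change was 1.28 ± 0.59 (adjusted p = 0.155). These 5 genes were named after their values were seen.

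Of the 12 BMP receptors and signal transducers, 0 were called at 2-fold with edgeR (either test) or DESeq2, and 1 rose at adjusted p alone. An unadjusted p under 0.05 was found for 5 of them, a count likewise without the share of all genes beside it. Bmpr2, the main type II receptor, had 417 ± 67.1 CPM in AVF and 400 ± 40.2 CPM in sham (SD, n = 6) and a log2 fold change of 0.06 ± 0.11 (adjusted p = 0.75). Of the 6 tested other BMP and GDF ligands, Gdf6 rose, and the exact test and DESeq2 each called 2 ligands. Gdf6 encodes a growth factor of joint and tendon formation. Its level was 1.94, 4.08 and 8.51 CPM in AVF males and 4.09, 6.41 and 15.7 CPM in AVF females, and 0.194 to 0.522 CPM in the sham libraries. No sham library came near the AVF libraries, and the log2 fold change was 4.21 ± 0.49 (adjusted p = 0.000332). All sham libraries were under 1 CPM, so Gdf6 entered the test through AVF libraries alone. Bmp6, a ligand made by endothelium, had 0.34 ± 0.24 (adjusted p = 0.349).

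Antagonists and inhibitors of BMP were called in both directions, with 6 of 15 that rose and 1 that fell at adjusted p alone. Fstl1, a secreted glycoprotein of mesenchymal cells, rose from 690 ± 158 to 2175 ± 529 CPM (SD, n = 6), with a log2 fold change of 1.66 ± 0.19 (adjusted p = 0.000308). Smad6, an intracellular inhibitor that BMP signalling itself induces, rose from 9.31 ± 3.61 to 19.5 ± 4.45 CPM, by 1.07 ± 0.24 on the log2 scale (adjusted p = 0.0137). Nog, the secreted BMP antagonist noggin, had 2.23, 1.56 and 1.72 CPM in AVF males and 2.91, 2.63 and 3.23 CPM in AVF females, and 3.15 to 10.4 CPM in sham. It fell, with a log2 fold change of -1.14 ± 0.30 (adjusted p = 0.0255), and passed in 18 of 21 alternative fits. Without samples #05 and #09 the log2 fold change was -1.06 (adjusted p = 0.0828). The antagonists Grem1, with 0.46 ± 0.17 (adjusted p = 0.0826), and Fst, with 0.37 ± 0.19 (adjusted p = 0.202), did not pass.

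Of the 8 tested BMP target genes 4 rose at adjusted p alone, and the list had the highest median log2 fold change of the 8 lists, 0.60. Id1, an inhibitor of differentiation factors, rose from 16.6 ± 3.11 to 25.6 ± 5.78 CPM (SD, n = 6), with a log2 fold change of 0.63 ± 0.16 (adjusted p = 0.0259). Id3 rose from 36.1 ± 10.6 to 57 ± 8.15 CPM, with 0.66 ± 0.18 (adjusted p = 0.0295). Msx2, a homeobox gene of osteogenic mesenchyme, rose from 0.451 ± 0.186 to 0.968 ± 0.282 CPM, with 1.10 ± 0.33 (adjusted p = 0.0436). Its sham levels were below the 1 CPM of the filter, so Msx2 entered the test through AVF libraries alone. Without samples #05 and #09 none of these genes passed, with an adjusted p of 0.0692 for Id1, 0.0754 for Id3 and 0.0882 for Msx2, at log2 fold changes of 0.57, 0.65 and 1.15. Msx2 passed in 7 of 21 alternative fits, with adjusted p values of 0.0196 to 0.0931.

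**Figure D3:**
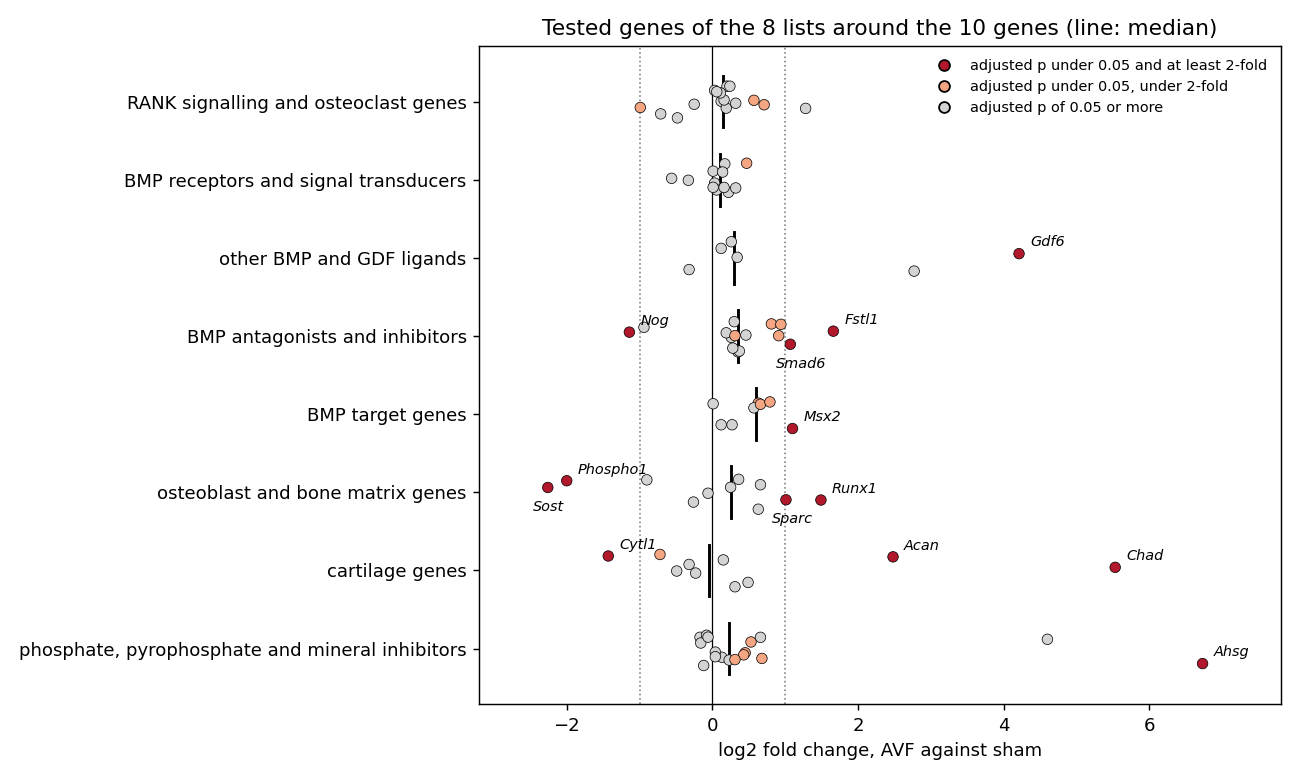
Log2 fold changes of AVF against sham for the tested genes of the 8 lists, 1 point per gene, with the list's median as a vertical line and 2-fold as dotted lines; colours give the result of the test, and genes called at 2-fold are named. The medians lie between -0.04 and 0.60, and of the called genes Gdf6, Chad and Ahsg lie above 4.

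Genes of osteoblasts and bone matrix divided, with 2 that rose and 2 that fell among 11 tested. Runx1, a RUNX factor of blood and mesenchymal cells, rose from 7.58 ± 1.64 to 21.3 ± 6.38 CPM (SD, n = 6), with a log2 fold change of 1.49 ± 0.20 (adjusted p = 0.000788). Sparc, an abundant matrix glycoprotein of bone and fibroblasts, rose from 3954 ± 981 to 7984 ± 1315 CPM, with 1.01 ± 0.18 (adjusted p = 0.00392), beside the fibroblast sum given above. Sost, the inhibitor of Wnt signalling made by osteocytes, fell from 2.53 ± 1.98 to 0.546 ± 0.305 CPM, with -2.26 ± 0.55 (adjusted p = 0.0207). It passed in 20 of 21 alternative fits, and without samples #05 and #09 it was -2.24 (adjusted p = 0.0595). Levels of Sost by sex are given with the sex contrasts below. Phospho1, a phosphatase of mineralizing cells that brown fat also expresses, fell from 38.6 ± 26.5 to 9.62 ± 2.79 CPM, with -2.00 ± 0.41 (adjusted p = 0.00886). Its highest level, 86 CPM, was in sham female 1, the library with the highest brown fat sum, and the part of brown fat was not tested. The osteoblast factor Sp7 was 0.649 ± 0.337 CPM in AVF and 1.2 ± 0.382 CPM in sham, with -0.90 ± 0.39 (adjusted p = 0.132). Bglap, the gene of osteocalcin, was at 0 in 11 libraries and at 0.0486 CPM in sample #05, and Mepe was at 0 in all 12. Spp1, the gene of osteopontin, had 15.8 ± 6.24 CPM in AVF and 10 ± 5.28 CPM in sham, with 0.66 ± 0.35 (adjusted p = 0.215).

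Of the 10 tested cartilage genes 2 rose and 1 fell at 2-fold. Chad, the gene of the cartilage protein chondroadherin, had 0.514, 1.07 and 2.49 CPM in AVF males and 3.23, 0.438 and 0.656 CPM in AVF females. In sham it was at 0 in 4 libraries, with 3 counts in all 6, against 138 counts in AVF. The ratio of the summed levels was 54.5, with an exact 95% interval of 18.3 to 268 that covers counting error only and not the spread between mice. In edgeR's test, which includes that spread, the adjusted p was 0.002. Acan, the gene of the cartilage proteoglycan aggrecan, had 0.539 to 1.64 CPM in AVF and 0 to 0.381 CPM in sham, with a log2 fold change of 2.48 ± 0.58 (adjusted p = 0.0178). Chad and Acan were under 1 CPM in every sham library and entered the test through AVF libraries alone. Their place among the tested genes thus depended on being high in AVF. Cytl1, a secreted factor of cartilage, fell from 54.3 ± 23.1 to 20.2 ± 10.2 CPM (SD, n = 6), with -1.43 ± 0.38 (adjusted p = 0.0288). It passed in 17 of 21 alternative fits, and without samples #05 and #09 it was -1.35 (adjusted p = 0.0802). Col2a1, the defining collagen of cartilage, stayed at 0 to 0.271 CPM in AVF and 0 to 0.522 CPM in sham, and the cartilage marker Matn1 was at 0 in all AVF libraries and reached 0.0847 CPM in sham. The 8 markers of cartilage and bone cells summed to 2.29 to 6.13 CPM in AVF and 1.61 to 4.14 CPM in sham, so that the groups overlapped. The 6 osteoclast markers summed to 114 to 176 CPM and 98.6 to 121 CPM, nearly all of it Acp5 and Ctsk.

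Of the 17 genes of phosphate, pyrophosphate and mineral inhibitors 6 rose at adjusted p alone. Entpd1, an ectonucleotidase of endothelium and leukocytes, rose from 140 ± 27.3 to 224 ± 11.5 CPM (SD, n = 6), with a log2 fold change of 0.68 ± 0.12 (adjusted p = 0.00353) and no overlap between the groups. The pyrophosphate transporter Ank had -0.17 ± 0.14 (adjusted p = 0.437), the phosphate transporter Slc20a1 -0.16 ± 0.08 (adjusted p = 0.219) and the adenosine-forming enzyme Nt5e -0.08 ± 0.33 (adjusted p = 0.896). Ahsg, the gene of fetuin-A, an inhibitor of mineral that the liver secretes, was the only gene of this list called at 2-fold by the quasi-likelihood test. The exact test and DESeq2 each called 2 genes of the list, and without samples #05 and #09 0 were called. Levels of Ahsg differed between the AVF libraries. It had 203 CPM in sample #05 and 649 CPM in sample #09 and 1.26 to 3.8 CPM in the other AVF libraries, against 0.677 to 2.03 CPM in sham. Without those 2 samples its log2 fold change was 0.66 (adjusted p = 0.28) in place of 6.73 ± 1.68 (adjusted p = 0.0222). The pathway gene Abcc6, named here after its values were seen, had 4.60 ± 1.44 (adjusted p = 0.0507). It stood at 2.19 CPM in sample #05 and 4.11 CPM in sample #09, and at 0 to 0.145 CPM in the other libraries.

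Sex was not used in choosing the 10 genes, and female and male mice were compared within each operation in a model of 4 groups of 3 mice, over 22163 genes with more than 12 counts. In edgeR's model, 0 of the 10 genes passed as different between the sexes within AVF, within sham, or in the effect of the AVF (the interaction), also by DESeq2, and 0 had an unadjusted p under 0.05. Over all genes 0.0226% were called within AVF, 0.0451% within sham and 0% in the interaction, where 1069 genes had an unadjusted p under 0.05. The log2 fold changes of the 10 genes, female against male, were -0.76 to 0.83 within AVF, with adjusted p values of at least 0.98. In sham they were -0.92 to 0.20, with adjusted p values of at least 0.696.

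The differences with the lowest p values concerned Runx2, Tnfrsf11b and Sox9. Runx2 in sham was 2.98 ± 1.36 CPM in females and 5.73 ± 2.91 CPM in males (SD, n = 3), with a log2 fold change of -0.92 ± 0.49 (edgeR's adjusted p = 0.696). Tnfrsf11b in sham was 1.09 ± 0.201 CPM in females and 1.88 ± 0.443 CPM in males, with -0.75 ± 0.40 (adjusted p = 0.702). In AVF it was 15.8 ± 7.07 CPM in females and 17.6 ± 5.75 CPM in males, with -0.15 ± 0.36 (adjusted p = 0.992). Sox9 in AVF was 4.95 ± 2.05 CPM in females and 2.76 ± 1.35 CPM in males, with 0.83 ± 0.38 (adjusted p = 0.98). The AVF effect on Tnfrsf11b, female minus male, was 0.60 ± 0.53 on the log2 scale (adjusted p = 0.96), and that on Runx2 was 1.01 ± 0.69 (adjusted p = 0.96). With 3 mice of each sex, differences of these sizes did not pass the test.

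**Figure D4:**
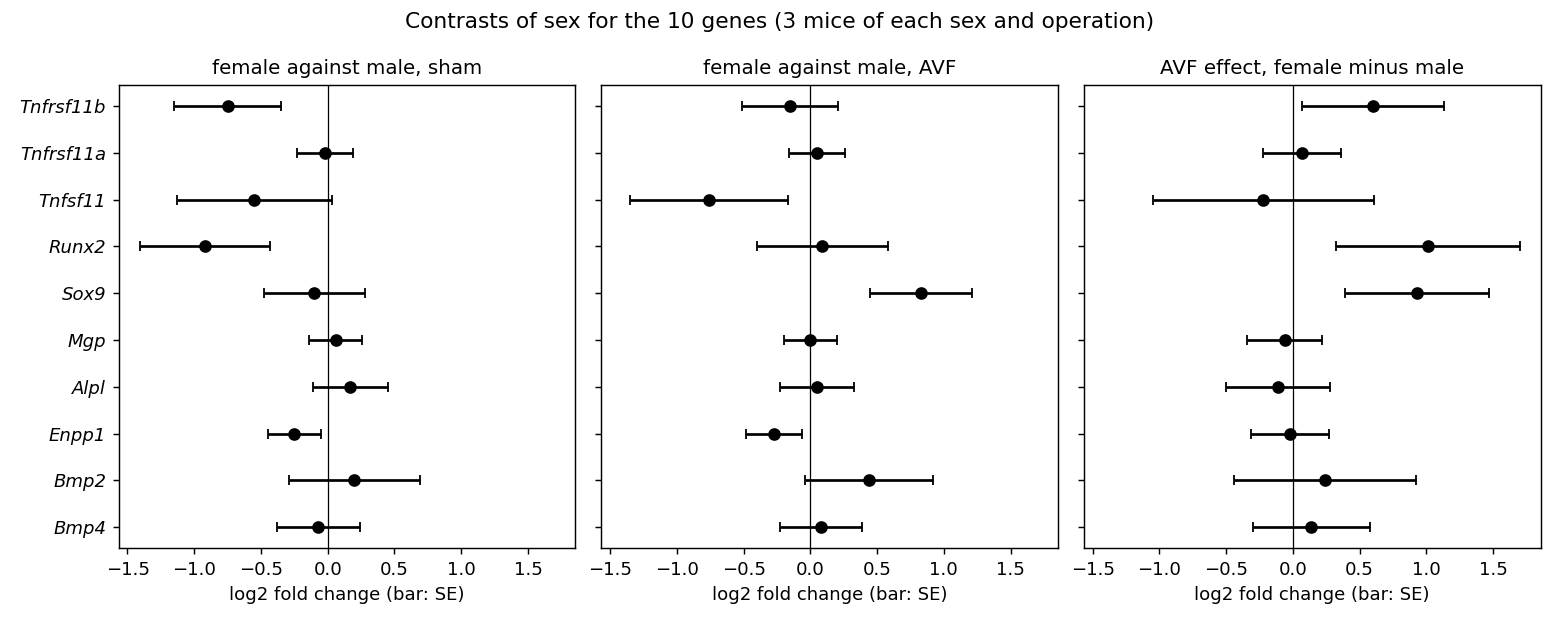
Log2 fold changes of the 10 genes for female against male in sham, female against male in AVF, and the AVF effect in females minus that in males, with SE as bars, from 4 groups of 3 mice. In sham, Runx2 at -0.92 and Tnfrsf11b at -0.75 lie farthest from 0, and no gene passed the test in any panel.

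Of the 108 pathway genes tested for sex, 0 were called within AVF, within sham or in the interaction by edgeR. In these contrasts 12, 19 and 9 of them had an unadjusted p under 0.05. Over all 22163 genes, 1005, 1680 and 1069 did. DESeq2 called 1, 7 and 0 genes, among them Sost and Id3 within sham. Sost in sham was 0.967 ± 0.237 CPM in females and 4.1 ± 1.54 CPM in males (SD, n = 3), with a log2 fold change of -2.06 ± 0.49 and an adjusted p of 0.327 by edgeR. In AVF it was 0.591 ± 0.428 CPM in females and 0.501 ± 0.21 CPM in males. The AVF effect on Sost, female minus male, was 2.17 ± 0.73 on the log2 scale (edgeR's adjusted p = 0.96). Id3 in sham was 26.9 ± 2.2 CPM in females and 45.2 ± 5.09 CPM in males, with -0.73 ± 0.14 (edgeR's adjusted p = 0.196). Chrdl1, a BMP antagonist on chromosome X named here after its values were seen, had the lowest p of these genes in sham. It was 162 ± 19.7 CPM in females and 454 ± 141 CPM in males there, with -1.46 ± 0.25 (edgeR's adjusted p = 0.121). In AVF it was 256 ± 66.1 CPM in females and 532 ± 88.4 CPM in males, with -1.07 ± 0.24 (edgeR's adjusted p = 0.624). DESeq2 called it within AVF and within sham.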

How the data were processed

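Libraries were stranded, from poly(A) RNA, and read in pairs. After trimming (PRINSEQ, Trimmomatic 0.39) the authors used STAR 2.7.7a for alignment to GRCm39 and RSEM 1.3.3 to estimate expression per Ensembl gene. The deposited values are these expected counts, neither filtered nor normalized. Expected counts share reads between similar genes, and 5.72% to 7.75% of a library's values were not whole. Mice were assigned to operation and sex from the sample labels. Nothing in the labels says that the mice were independent in litter or cage, so p values measure the spread between these mice.

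Counts were rounded, scaled by TMM and tested with edgeR 4.0.16 (quasi-likelihood, Benjamini-Hochberg over all tested genes, R 4.3.3). AVF against sham was tested where at least 2 samples exceeded 1 CPM, and a gene was called at an adjusted p under 0.05 with 2-fold. A gene could pass this filter through the libraries of 1 group alone, the group where it is high. Sex contrasts used more than 12 counts in all and 1.5-fold, and the interaction adjusted p alone. Alternatives were the exact test, DESeq2 1.42.0, other scaling and filters, sex as a covariate, a replicate block, and samples left out. The fits were tested on simulated data.

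The 10 genes and all lists were chosen with earlier results of these data known. Genes named are the 10, 23 listed pathway genes, up to 3 genes called at 2-fold with the largest change per list, and the 5 genes most like Tnfrsf11b after adding 0.5 CPM and taking log2. Gene names and coordinates are from GENCODE M39, in which 665 of 55414 identifiers had no name, and exon lengths are the union of annotated exons. Reads, the ultrasound data and the microarray were not used here.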

Additional observations from a re-analysis of the deposited data

Results flagged for a closer look

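Levels of 43 genes were searched within the 6 AVF and the 6 sham libraries for a sample whose gap to the others, over the whole range of the group, exceeded Dixon's critical value for 6 samples at the 95% level. Of 83 groups searched 7 had such a sample, where chance alone gives about 1 in 20 groups, and none concerned the 10 calcification genes. Nog stood apart in sham female 3 at 10.4 CPM. Lgr4 stood apart in AVF female 3 at 45.2 CPM, and Tnfsf10 was low in AVF female 3 at 24.5 CPM and in sham female 2 at 39.9 CPM. Ank stood apart in AVF male 3 at 64.1 CPM and Entpd1 in AVF female 1 at 246 CPM. Ahsg stood apart in AVF female 2 (sample #09) at 649 CPM, the library with the highest hepatocyte sum.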

How the results depend on the processing

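The count of 2 calcification genes called at 2-fold held in 20 of 21 alternative fits and in each tool, and it was 2 to 3 when each sample was left out, with Mgp as the third gene. It was 4 at adjusted p alone, and that count was 3 to 4 over the samples left out. The 10 genes were chosen with this comparison known, so these counts describe how the fits differ, and nothing further is read from them. Over all genes, 759 were called, against 2190 at adjusted p alone and 471 without samples #05 and #09. With 1 sample left out the count was 470 to 1023. The low ends were without sham female 2 (470) and AVF male 2 (489). The high end (1023) was without AVF female 1, the library with 46% ribosomal RNA. The pathway lists gave 13 calls, 30 at adjusted p alone and 10 to 15 with 1 sample left out. Between the sexes, DESeq2 called 50 genes in AVF, 149 in sham and 3 in the interaction, in place of 5, 10 and 0; leaving out 1 sample gave 5 to 7 in AVF and 8 to 22 in sham, with 22 without sham male 1 and 18 without sham female 2. The cause of these changes was not tested.

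Of 189 fold changes of the 9 genes under the alternatives, 188 moved by less than the spread between replicates. Bmp2 without samples #05 and #09 (1.01) moved by more. That spread is the SD of single libraries. Leaving out 1 of 6 libraries can hardly move a fold change that far, so the 188 are not read as stability. The genes whose sign turned were near 0 and not called. Runx2, at -0.05 with all samples, ranged from -0.19 (without sham female 2) to 0.28 (without sham male 3), and was 0.23 without samples #05 and #09, 0.02 with sex as a covariate and 0.03 with the replicate block. With 1 sample left out, Acp5 ranged from -0.09 to 0.19, Csf1 from -0.03 to 0.13 and Nt5e from -0.30 to 0.07, and Nt5e was 0.00 with sex as a covariate. None of these 4 was called in any fit.

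Same-numbered AVF and sham mice of a sex did not deviate together in every pair (r = -0.144 to 0.175), so the numbers were not taken as pairs. With the replicate block, 668 genes, 2 of the calcification genes and 13 pathway genes were called, and 0 in the interaction.

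Limits are the low counts of Tnfsf11, the mixed tissue of the IVC segments, and the high levels of hepatocyte genes in samples #05 and #09. The source of these levels was not tested.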
